A study of Sus scrofa with 8 samples.

Results

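Cells show peptides to T cells on MHC molecules, which in the pig are called SLA. NLRC5 and CIITA are coactivators of the NLR family that do not bind DNA themselves: NLRC5 acts mainly at class I promoters and CIITA at class II promoters, and both are recruited there by the RFX complex, whose subunits are RFX5, RFXAP and RFXANK. PD-L1, encoded by CD274, is a surface ligand that restrains T cells through its receptor PD-1. Interferon gamma is a known inducer of NLRC5, CIITA and CD274, and IRF-1 is a transcription factor of that response.

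These 6 genes were examined in RNA-seq libraries of porcine induced pluripotent stem cells (piPSCs), to ask how they differ when IRF-1 is overexpressed. The IRF-1 overexpressing group (replicates 1 and 3) carried PB-CAG-IRF1-Flag, a transposon in which the CAG promoter drives an IRF1 insert amplified from porcine embryonic fibroblasts, and the control group (replicates 6 and 8) carried PB-CAG-Flag. Both groups were DOX-hLIF-2i piPSCs, made from porcine embryonic fibroblasts with doxycycline-inducible reprogramming factors, kept in medium with LIF, kinase inhibitors and doxycycline, and selected with puromycin after transfection. Feeder cells were removed before RNA extraction, and the sample labels name a different culture medium (LCDMV), give the breed as domestic pig and the stage as adult. The labels also give the overexpression genotype for all 4 libraries, and the assignment used here joins the sample numbers in the titles to a figure legend of the study. Nothing states that the libraries of a group are separate cultures, so p-values measure the spread between these samples, which may be technical.

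Members were the identifiers of the count table that have any of the 6 symbols in the pig Ensembl gene names. This gave 5 of the 24358 identifiers, for NLRC5, CIITA, RFX5, RFXANK and CD274. RFXAP has no identifier named in this way, and the unnamed identifier that lies within its RefSeq span was matched by position after the table had been seen; its values are given apart from those of the 5 members. The reads counted on genes numbered 24923319 and 20858333 in the overexpressing replicates 1 and 3, and 15925429 and 17097669 in the control replicates 6 and 8.

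IRF1 was read first, as a check of the labels. It was counted 8206 and 5485 times with IRF-1 overexpression and 55 and 56 times without, and its log2 fold change was 6.46 (standard error, SE, 0.21, adjusted p = 3.65e-05, quasi-likelihood test of edgeR, adjusted by Benjamini-Hochberg over all genes tested). The IRF1 counts thus separate the libraries in the way the figure legend assigns them. These counts do not separate introduced from endogenous transcripts.

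All 5 members passed the filter on low counts, NLRC5 and CD274 through the overexpressing libraries alone. A gene was called when its adjusted p was under 0.05 and its log2 fold change was at least 1 in size. Of the 5 members, 1 was called higher (NLRC5) and 1 lower (CIITA), while of the 13250 genes tested 8.61% were called higher and 10.6% lower, which is 1141 and 1410 genes. Without overexpressing replicate 1 these became 756 and 874 genes. With 5 members, 1 call in each direction is not set apart from these shares, and the genes are therefore described one by one. For any gene, the smallest two-sided p that exact permutation of 2 and 2 libraries allows is 0.333; the smaller p values here come from the variance that edgeR pools over genes. In these bulk libraries, a gene expressed in fewer cells and a gene with less RNA per cell cannot be told apart.

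NLRC5, the class I coactivator (ENSSSCG00000039751), lies on the plus strand of pig chromosome 6, from 18932637 to 19036843. It had 57 counts in overexpressing replicate 1, 36 in overexpressing replicate 3, and 0 in each of the control replicates. The gene was thus counted in both overexpressing libraries and in neither control. In CPM, the count relative to the library total, scaled with the TMM factor of the library, this was 2.01 ± 0.399 (SD, n = 2) in the overexpressing cells. For a lower bound, the controls were set to the floor of 3 counts per library. NLRC5 was then higher in the overexpressing cells by a log2 difference of at least 3.47, a bound that was not tested. The adjusted p of 0.00231 (edgeR, Benjamini-Hochberg) belongs to the fit on the counts, in which NLRC5 was called higher. The call was made under all 15 alternative settings tried, including no filter and each library left out in turn.

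The level of NLRC5 in the overexpressing cells was low. Per kilobase of exon it was 0.267 and 0.201 CPM in replicates 1 and 3, and 6.01% of the genes tested had a lower mean level in these cells. A count of 3 corresponds to 0.192 CPM in control replicate 6 and 0.172 CPM in control replicate 8, so an NLRC5 level under those values could be missed at this depth. Floors and counting intervals cover counting error only.

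CIITA, the class II coactivator (ENSSSCG00000007901), lies on the minus strand of chromosome 3, from 32172214 to 32230780. Its counts were 43 and 36 in overexpressing replicates 1 and 3, and 60 and 66 counts in control replicates 6 and 8. Scaled, it was 1.73 CPM in both overexpressing libraries and 3.84 and 3.77 CPM in the controls. Both overexpressing libraries lay below both controls, in the opposite direction to NLRC5. The log2 fold change was -1.13 (SE 0.36, 95% interval -1.97 to -0.30), and the adjusted p was 0.0495 (edgeR, Benjamini-Hochberg), just inside the threshold. The direction was the same in all 15 alternatives, but these refit the same libraries and are no independent evidence of it. The call was made in only 8 of them. It was lost with DESeq2 (adjusted p = 0.0930), with glmTreat (0.788), without mitochondrial genes, where p lay just above the threshold, and with each of the 4 libraries left out in turn (0.0942 to 0.230). As a ratio of summed counts, corrected for library size, CIITA was at 0.455 of the control level, with an exact 95% counting interval of 0.339 to 0.607.

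**Figure D1:**
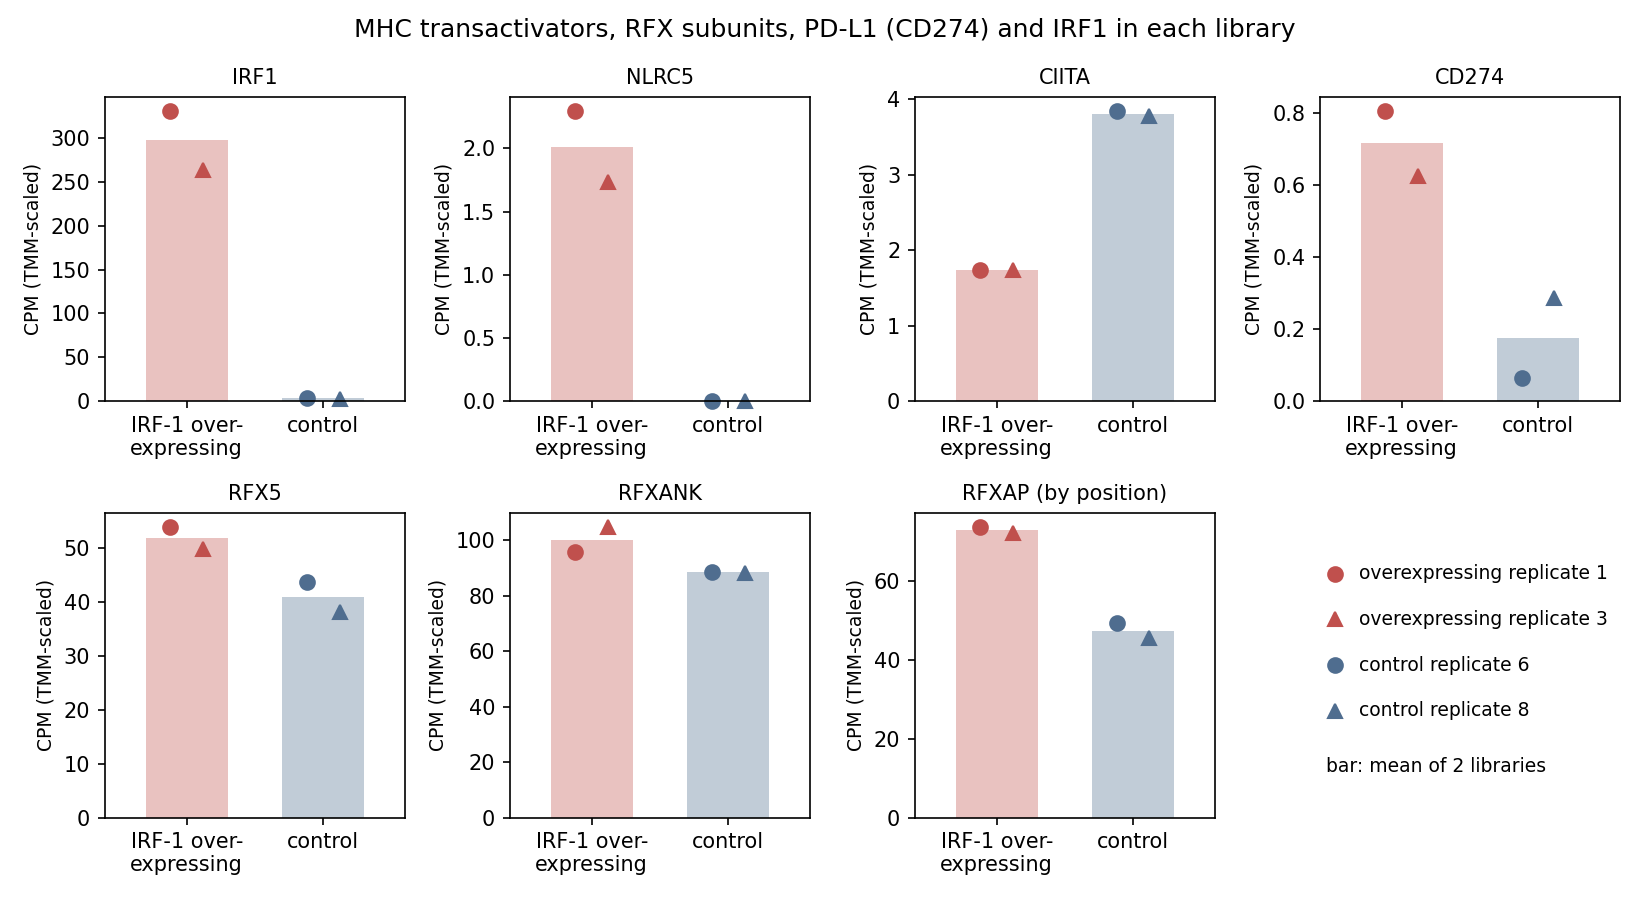
TMM-scaled CPM of IRF1, the members and RFXAP (matched by position) in each library; points are single libraries, bars are means of 2 libraries, and each panel has its own axis from 0. NLRC5 was at 0 in both controls, and CIITA was below both controls in both overexpressing libraries, as were 33.8% of all genes tested, while 34.8% were above both.

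The RFX complex, through which both coactivators reach DNA, was counted at far higher levels. RFX5 (ENSSSCG00000006625), the winged-helix subunit that contacts DNA, lies on the plus strand of chromosome 4, from 97902371 to 97908676, and was counted 1336 and 1036 times with IRF-1 overexpression and 682 and 666 times without. This was 53.8 and 49.8 CPM against 43.7 and 38.1 CPM, so that the overexpressing libraries were the higher ones by a small margin. The log2 fold change was 0.34 (SE 0.15, 95% interval -0.01 to 0.70, adjusted p = 0.135 by edgeR with Benjamini-Hochberg adjustment), and RFX5 was not called.

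RFXANK (ENSSSCG00000036310), the ankyrin repeat subunit, lies on the minus strand of chromosome 2, from 58675924 to 58684513. It was counted 2381 and 2177 times with IRF-1 overexpression and 1386 and 1545 times without, or 95.8 and 104.7 CPM against 88.7 and 88.3 CPM. The groups did not overlap, but the 95% interval of the log2 fold change included 0 (0.18, SE 0.14, interval -0.14 to 0.49, adjusted p = 0.363 by edgeR and Benjamini-Hochberg), and RFXANK was not called. RFXANK shares 975 exon bases with NR2C2AP on the opposite strand, and the strand setting of the counting is not given in the sources used here, so its counts are less certain than those of the other members, which share no exon bases with another gene in the table.

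RFXAP, the remaining subunit, was read from ENSSSCG00000009356, on the plus strand of chromosome 11 from 12689374 to 12694398. It was counted 1828 and 1501 times with IRF-1 overexpression and 772 and 794 times without, which is 73.6 and 72.2 CPM against 49.4 and 45.4 CPM. Both overexpressing libraries were above both controls. The log2 fold change was 0.62 (SE 0.14, 95% interval 0.30 to 0.94) with an adjusted p of 0.0135 (edgeR, Benjamini-Hochberg), and it was not called because it lay below the fold minimum. Leaving out either of the overexpressing libraries raised the adjusted p over the threshold (0.110 for replicate 1, 0.0761 for replicate 3). Of the RFX subunits it had the largest fold change. The differences between the subunits were not tested.

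CD274 (ENSSSCG00000005211), which encodes PD-L1, lies on the minus strand of chromosome 1, from 216660035 to 216682540. Its counts were 20 and 13 in the overexpressing replicates, and 1 and 5 counts in control replicates 6 and 8. The controls hold 6 counts in all, so the size of the difference is poorly fixed. The ratio of summed counts, corrected for library size, was 3.99, with an exact 95% counting interval of 1.65 to 11.7. The log2 fold change was 1.96 (SE 0.73, 95% interval 0.26 to 3.66) and the adjusted p was 0.0832 (edgeR, Benjamini-Hochberg), and CD274 was not called. It was not called in any of the 14 alternatives that gave it a value, in which the adjusted p ranged from 0.0740 to 0.367, and the log2 fold change moved from 1.31 without control replicate 6 to 3.38 without control replicate 8.

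The order of the members, with the position-matched RFXAP beside them, was then compared per kilobase of exon, the only scale on which levels of different genes can be set side by side. In the controls RFXAP (24.9 ± 1.49 CPM per kilobase, SD, n = 2) and RFXANK (24.97 ± 0.0748) did not differ beyond their spread, and RFX5 followed at 7.45 ± 0.718. CIITA (0.410 ± 0.00508) came next, then CD274 (0.0401 ± 0.0359), and NLRC5 was at 0. In the overexpressing cells the order was RFXAP (38.3 ± 0.528), RFXANK (28.3 ± 1.76), RFX5 (9.44 ± 0.512), NLRC5 (0.234 ± 0.0463), CIITA (0.186 in both libraries) and CD274 (0.164 ± 0.0292), where the last 3 genes differed by about as much as their spread. Between the coactivators, NLRC5 was below CIITA in both controls and above it in both overexpressing libraries, at 1.43 and 1.08 times the CIITA level per kilobase in replicates 1 and 3, a narrow margin in replicate 3. RFX5 exceeded CIITA 52.7 and 48.8 times in the overexpressing libraries and 19.3 and 17.1 times in the controls.

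Genes of the class I pathway, only some of which are known targets of NLRC5, were examined next. The class I list held 19 genes for heavy chains, beta-2-microglobulin, peptide loading and the immunoproteasome, of which 11 had a named identifier and all of these passed the filter. Of the 11, 9 were called higher and 0 lower, where 8.61% and 10.6% of all genes tested were called. The median log2 fold change of the 11 was 1.71, against 0.00 over all genes tested. The 0 lower also held under DESeq2, and at an unadjusted p under 0.05 the gene below 0 was CALR. None of the 11 encodes a heavy chain or beta-2-microglobulin, so these values describe peptide supply and loading.

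ERAP2, a peptide-trimming aminopeptidase of the endoplasmic reticulum, was counted 1660 and 921 times with IRF-1 overexpression and 0 and 1 times without. This is the sharpest contrast of the list, with a ratio of summed counts whose exact 95% counting interval starts at 335.8. Its relative ERAP1 stood at 55.3 and 37.8 CPM against 2.62 and 3.09 CPM, a log2 fold change of 4.02 (SE 0.27). The immunoproteasome subunits PSMB8 and PSMB9 had log2 fold changes of 4.34 (SE 0.26) and 3.64 (SE 0.37), and the adjusted p of these 4 genes was at most 0.000686 (edgeR, Benjamini-Hochberg). The other 5 called genes, chosen for mention after their values were seen, were PSMB10, the peptide transporter genes TAP1 and TAP2, and the loading factors TAPBP and TAPBPL, with log2 fold changes from 1.30 to 3.33. The chaperones CALR (567.1 and 651.9 CPM against 891.8 and 751.0 CPM) and PDIA3 (725.9 and 740.9 CPM against 738.5 and 830.5 CPM), the genes of the list with the highest CPM (not corrected for length, here and in the lists below), were not called. TAP1 and PSMB9 share 327 exon bases on opposite strands, PSMB10 shares exon bases with PSKH1 and CTRL, and TAPBPL with an unnamed gene, so that reads of these genes may be mixed. SLA-8, a class I heavy chain matched by position, had 757 and 535 counts against 572 and 502, overlapped between the groups in CPM and was not called.

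The class II list holds genes of the class II pathway, only some of which are known targets of CIITA. Of 15 genes 9 had a named identifier and 6 passed the filter, of which 2 were called higher and 1 lower, and the median log2 fold change was 0.17. With 6 genes these counts are not set apart from the 8.61% and 10.6% over all genes tested. SLA-DQB1, the beta chain of a class II molecule, was counted 87 and 58 times with IRF-1 overexpression and 4 and 5 times without, the opposite direction to CIITA. Its log2 fold change was 3.51 (SE 0.50, adjusted p = 0.00216 by edgeR and Benjamini-Hochberg), and it was called under all 15 alternatives; class II chains are close in sequence, so its reads may be shared with relatives. IFI30, a lysosomal thiol reductase, was higher with a log2 fold change of 1.49 (SE 0.35), and was not called without overexpressing replicate 1 (adjusted p = 0.0640).

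CD74, the invariant chain that escorts class II molecules, was counted 17 and 21 times with IRF-1 overexpression and 58 and 34 times without. It moved with CIITA, with a log2 fold change of -1.74 (SE 0.50, adjusted p = 0.0350 by edgeR and Benjamini-Hochberg). The call was lost with glmTreat (0.237) and without overexpressing replicate 1 (0.214), overexpressing replicate 3 (0.0782) or control replicate 6 (0.186), and over the libraries left out in turn the log2 fold change ranged from -2.13 to -1.20. CD74 shares 1569 exon bases with TCOF1 on the opposite strand and 420 with an unnamed gene on the same strand. Its counts are uncertain for these reasons. The proteases LGMN (92.3 and 90.3 CPM against 109.5 and 107.9 CPM) and CTSS (15.6 and 14.0 CPM against 10.4 and 9.38 CPM) were not called; CTSS shares 1254 exon bases with ARNT.

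**Figure D2:**
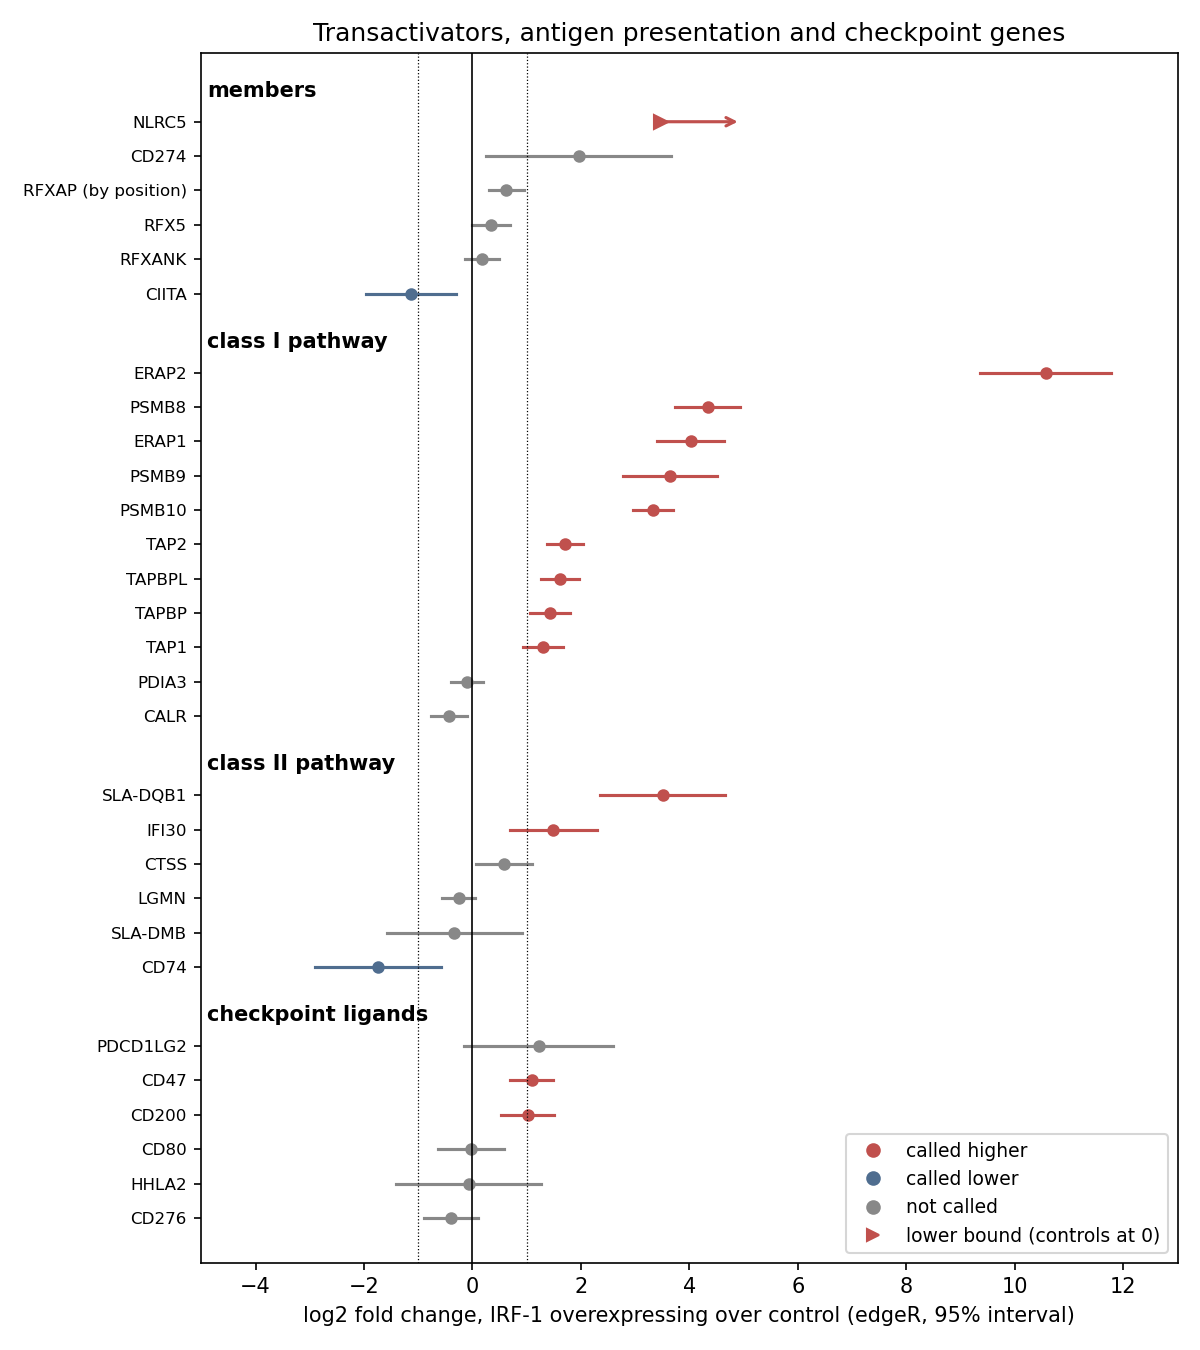
Log2 fold change (IRF-1 overexpressing over control, edgeR) of the members and of tested genes of the class I, class II and checkpoint lists; lines are 95% intervals, dotted lines mark -1 and 1, and colours show the call. The triangle of NLRC5 is a lower bound against 3 counts per control library, and the fitted value of ERAP2, with 1 control count in all, depends on the prior count. Of the 11 class I genes, 9 were called higher, as were 8.61% of all genes tested.

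The partners with which NLRC5 and CIITA act at MHC promoters were taken next. Of 18 listed DNA-binding factors and chromatin enzymes, 16 had an identifier and passed the filter, 0 were called higher and 1 lower, and the median log2 fold change was 0.07. The gene called was the acetyltransferase KAT2B, at 11.8 and 10.5 CPM in the overexpressing libraries against 31.5 and 21.6 CPM in the controls, a log2 fold change of -1.25 (SE 0.24) that was -0.96 without control replicate 6 and then not called. With 16 genes these counts are not set apart from the shares over all genes tested. CARM1 (0.57, adjusted p = 0.0205) and NFYA (0.54, 0.0278) had an adjusted p under the threshold and lay below the fold minimum (edgeR, Benjamini-Hochberg); CARM1 shares 2830 exon bases with YIPF2. HDAC2 and SMARCA4, highest in CPM of those not called, had log2 fold changes of 0.19 and 0.10. Of the 6 other RFX factors with an identifier, 5 passed the filter and none was called by edgeR. RFX7 (log2 fold change 0.46) and RFX1 (-0.55) had the highest CPM, and when no fold minimum was set these were the 2 called; RFX1 shares 729 exon bases with DCAF15.

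Relatives of NLRC5 and CIITA in the NLR family were then compared. Of 16 listed genes 8 had a named identifier and 4 passed the filter, with 1 called higher, 1 lower and a median log2 fold change of -0.87. With 4 genes this is not set apart from the 8.61% and 10.6% over all genes tested. NLRC3 was counted 58 and 43 times with IRF-1 overexpression and 7 and 14 times without. Both overexpressing libraries were the higher, with a log2 fold change of 1.80 (SE 0.48, adjusted p = 0.0271 by edgeR and Benjamini-Hochberg). NLRP12 went the other way, at 26 and 44 counts against 79 and 64 (log2 fold change -1.47, SE 0.45). Both calls were lost with glmTreat (adjusted p = 0.187 and 0.386), without overexpressing replicate 1 (0.162 and 0.263) and without control replicate 6 (0.0998 and 0.119), that of NLRC3 also without overexpressing replicate 3 (0.0906) and under DESeq2 (0.0608). NOD1 and NOD2, sensors of bacterial peptides, were not called. NLRP6, which did not pass the filter, had 32 and 8 counts against 0 and 1, a ratio of summed counts of 29.0 with an exact 95% counting interval from 4.92, and was called higher with no filter; NLRP3, NLRP9 and NLRP13 had 0 counts in every library.

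Genes of the interferon gamma input to NLRC5, CIITA and CD274 were read next; transcript counts do not measure the cytokine itself. IFNG, which encodes interferon gamma, had 0 counts in both overexpressing libraries and 0 and 1 in the controls. The receptor gene IFNGR1 had 50 and 27 counts against 33 and 47, and IFNGR2 had at most 3 counts in any library. Of 14 listed genes of this input, all had an identifier, 9 passed the filter, 4 were called higher and 0 lower, and the median log2 fold change was 0.64, where 8.61% and 10.6% of all genes tested were called. The 4 include IRF1 itself, the introduced gene. DESeq2 also called 0 lower.

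The kinase gene JAK1 was at 41.4 and 31.2 CPM in the overexpressing libraries and 9.98 and 8.86 CPM in the controls, a log2 fold change of 1.95 (SE 0.22, adjusted p = 0.000917 by edgeR and Benjamini-Hochberg). SOCS1, a feedback inhibitor of JAK kinases, was higher with a log2 fold change of 1.25 (SE 0.18), and so was PRDM1, a repressor known to act on the CIITA gene, with 2.15 (SE 0.45). PRDM1 had 117 and 71 counts against 18 and 12, and its call was lost without overexpressing replicate 1 (adjusted p = 0.0764). USF1, a factor known to act on a CIITA promoter, was at 48.9 and 51.9 CPM against 47.8 and 36.4 CPM and was not called.

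Around CD274, other surface ligands that regulate immune cells were compared. Of 17 listed genes 8 had a named identifier and 6 passed the filter; 2 were called higher and 0 lower, and the median log2 fold change was 0.50, where 8.61% and 10.6% of all genes tested were called. DESeq2 also called 0 lower, and glmTreat called 0 in either direction. CD47, a signal that restrains phagocytes, was at 138.3 and 110.0 CPM against 62.9 and 53.6 CPM, and CD200 at 32.2 and 24.8 CPM against 13.1 and 15.0 CPM. Their log2 fold changes, 1.09 (SE 0.17) and 1.02 (SE 0.21), lay close to the minimum of 1, and both fell under it without overexpressing replicate 1 (0.93 and 0.83). CD47 was likewise not called without control replicate 8, and CD200 without control replicate 6. CD276 and CD80, the ligands not called with the highest CPM, overlapped between the groups. CD200 shares 1766 exon bases with an unnamed gene and CD80 1132 with TIMMDC1.

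Genes that act on PD-L1 protein numbered 12 in the list, of which 10 had a named identifier and 8 passed the filter; 0 were called higher and 1 lower, and the median log2 fold change was 0.08. This is near the shares over all genes tested, 8.61% and 10.6%. The gene called was STT3B, a catalytic subunit of the complex that adds N-linked glycans, at 288.8 and 326.9 CPM in the overexpressing libraries against 640.0 and 685.3 CPM in the controls. Both overexpressing libraries were lower, with a log2 fold change of -1.11 (SE 0.13, adjusted p = 0.00118 by edgeR and Benjamini-Hochberg). The kinase gene GSK3B had a log2 fold change of 0.07 and was not called. STT3A, the paralogue of STT3B, had one of -0.53 (adjusted p = 0.0399 by edgeR and Benjamini-Hochberg) and lay below the fold minimum. SPOP, of the same list, went the other way (0.81, SE 0.15, adjusted p = 0.00654 by edgeR and Benjamini-Hochberg) and lay below the fold minimum. CMTM6, which keeps PD-L1 at the cell surface, was matched by position and had a log2 fold change of -0.60 (SE 0.18), below the fold minimum.

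The neighbourhoods of NLRC5, CIITA and CD274 were looked at after the values had been seen, within 200 kb of each gene. Near NLRC5, 9 identifiers lay in the window and 7 were tested, of which 0 were called higher and 1 lower. The gene called was CPNE2, 9.96 kb away, at 4.35 and 4.47 CPM against 16.5 and 10.4 CPM (log2 fold change -1.61, SE 0.31). Near CIITA 4 of 6 identifiers were tested and none was called by edgeR. Near CD274 5 of 10 were tested and 1 was called higher. These counts are not set apart from the 8.61% and 10.6% over all genes tested. PDCD1LG2, which encodes PD-L2, lies 38.6 kb from CD274 and had 30 and 13 counts against 6 and 7 (log2 fold change 1.22, SE 0.59), which was not called. The gene called was INSL6, 110 kb away, with 35 and 16 counts against 1 and 3, and its call was lost without overexpressing replicate 1 (adjusted p = 0.162) or control replicate 6 (0.0743). JAK2, 166 kb away, had a log2 fold change of 0.09.

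Profiles were compared with those of genes at a minimum mean CPM of 1, under which CD274 itself lies. By the distance between centred log2 CPM profiles over the 4 libraries, the genes most like NLRC5 were VWDE (distance 0.132), NKX2-5 (0.253) and LGR5 (0.258). VWDE and NKX2-5 were also at 0 in both controls. Because NLRC5 is at 0 there, its distances depend on the value added to counts of 0 before the log was taken. The genes nearest to CIITA were TTC21B (0.0701), GOLM1 (0.0707) and ZNF449 (0.0783), and these, with 213 to 1364 counts in overexpressing replicate 1, were called lower with log2 fold changes of -1.07, -1.11 and -1.13. Nearest to CD274 were CCSER1 (0.232), RNF125 (0.246) and IGFBPL1 (0.249), each called higher. The call of CCSER1 was lost under DESeq2 (adjusted p = 0.106) and without overexpressing replicate 1 (0.223), overexpressing replicate 3 (0.110) or control replicate 6 (0.155), and that of IGFBPL1 without overexpressing replicate 1 (0.136). RFX5 was closest to OTUB2, YAF2 and DGKD, and RFXANK to RP9, MRFAP1 and VCPKMT, none of which was called by edgeR. With 4 libraries in 2 groups, many genes share such a profile. The nearest genes were picked by their profiles, so their fold changes and calls give no support to those of CIITA or CD274.

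Since CIITA and CD74 are also known from antigen-presenting cells, markers of such cells were read in the same libraries. Of 16 listed genes 15 had a named identifier and 8 passed the filter, with 1 called higher and 1 lower. With 8 genes this is not set apart from the 8.61% and 10.6% over all genes tested. The summed level of the named markers was 79.1 and 60.0 CPM in the overexpressing libraries and 200.1 and 139.8 CPM in the controls. The highest CPM was that of AIF1, at 34.9 and 25.9 CPM against 169.0 and 119.2 CPM (log2 fold change -2.24, SE 0.22). BATF3 was called higher (1.91, SE 0.31). The markers of the list were not uniform. MS4A1 and CD163 had 0 counts in every library and PTPRC, the pan-leukocyte marker, had 1 count in control replicate 8 and 0 elsewhere, while CD68 (148 and 135 counts against 126 and 100), CD83 (145 and 105 against 136 and 90), CD79A (47 and 59 against 28 and 19), SPI1 (36 and 31 against 37 and 27) and CSF1R (23 and 20 against 28 and 24) were counted in every library and not called. CD79A shares 3229 exon bases with ARHGEF1 and CD68 121 with EIF4A1, both on the same strand, and CSF1R 2813 with HMGXB3 on the opposite strand. Their counts may therefore include reads of those genes. Of 10 named lymphoid markers 2 passed the filter and none was called by edgeR; their summed level was at most 1.32 CPM in any library, the highest CPM was that of PRF1 in the overexpressing libraries and PDCD1 in the controls, and CD3E, CD8B and CTLA4 were at 0.

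Some markers of other cell states were also called between the same groups. Over all genes tested, 8.61% were called higher and 10.6% lower. Of 12 named trophoblast markers 8 passed the filter, with 1 called higher (TFAP2A) and 5 lower, and their summed level was 319.5 and 1173 CPM in the overexpressing libraries against 15690 and 9625 CPM in the controls. Most of this was KRT8, at 250.1 and 1014 CPM against 12010 and 7489 CPM, while CDX2 and HAND1 were at 0. Of 13 named pluripotency markers 10 passed the filter, and 0 were called higher and 5 lower. The 5 were ESRRB (log2 fold change -4.19), CDH1 (-2.25), KLF5 (-1.93), OTX2 (-1.79) and LIN28A (-1.34). The summed level of the pluripotency markers was 1501 and 1557 CPM against 1831 and 2017 CPM, the highest CPM was that of DNMT3B, and PRDM14 was at 0. By qRT-PCR, the study reports KLF5, PRDM14 and DNMT3B as upregulated with IRF-1 overexpression. It reports LIN28A and OTX2 as downregulated, the direction they had here. DNMT3B had a log2 fold change of 0.27 (SE 0.18) here and was not called. KLF5 rested on 8 and 12 counts with IRF-1 overexpression against 20 and 37 without. The call of KLF5 was lost under DESeq2 (adjusted p = 0.0861) and without overexpressing replicate 1 (0.256), overexpressing replicate 3 (0.0813) or control replicate 8 (0.169). NODAL, not called here, was called higher under DESeq2, under limma-voom, with no filter and without control replicate 8. Of 18 named fibroblast markers 12 passed the filter, 2 were called higher, PRRX1 (1.62) and COL1A2 (1.08), and 4 lower, among them PDGFRB (-5.49), DCN (-3.63) and S100A4 (-2.40), with a summed level of 1737 and 1497 CPM against 1870 and 1811 CPM, most of it VIM. The call of COL1A2 was lost without overexpressing replicate 1 (adjusted p = 0.184) and, by its fold change of 0.78 in log2, without control replicate 8, and that of DCN without overexpressing replicate 3 (0.0557).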

How the data were processed

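The methods of the study name trim_galore for trimming, HISAT2 for alignment to the pig genome, and both htseq-count and featureCounts for counting; the sample records list HISAT2 2.0.4 and featureCounts 1.6.4. The deposited table gives, in the unit count, integer reads on each Ensembl gene in 4 RNA-seq libraries, with exon lengths, as the authors supplied them. Annotation release, strand setting and treatment of multi-mapped reads are not given in the sources used here, which leaves overlapping or near-identical genes uncertain. ChIP-seq libraries were not analysed here. Of 24358 identifiers, 14692 received a symbol and 16 were matched by position to RefSeq. The counts were fitted with edgeR 4.0.16 (TMM, filterByExpr, quasi-likelihood test, Benjamini-Hochberg adjustment over 13250 genes); a standard error is the log2 fold change divided by the square root of F. Named genes are the members, IRF1, called genes of each list (at most 4 a direction, 3 for marker lists), up to 2 uncalled genes of a pathway list with the highest CPM, the gene of a marker list with the highest CPM, and 3 nearest profiles per member; other genes were chosen after their values were seen. The alternatives were other normalizations, filters, prior counts and thresholds, DESeq2 1.42.0, limma-voom 3.58.1, removal of 37 mitochondrial genes, and each library left out. Members and lists were chosen with earlier results of these data known.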

Additional observations from a re-analysis of the deposited data

How the results depend on the processing

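The calls of NLRC5 and IRF1 were made under all 15 alternatives, and RFX5, RFXANK and CD274 were not called under any that gave a value; CD274 has none with a minimum of 1 CPM in 2 libraries, where it is filtered out. The fitted log2 fold change of NLRC5 is no bound, since it was 8.32 with the prior count used and 4.38 with a prior count of 2. CIITA had a log2 fold change of -1.14 with DESeq2, -1.13 with glmTreat, -1.13 without mitochondrial genes and -1.14 to -1.12 with each library left out in turn, and was not called in these. When a library was left out, the lone sample of its group was assumed to vary like the other group. With no fold minimum RFXAP was called, at 0.62, with all 4 libraries kept.

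With glmTreat, which tests the fold change against the minimum, 611 genes were higher and 603 lower, and with no fold minimum 1842 were higher. With each library left out in turn the counts were 756 to 1156 higher and 874 to 1548 lower. Under glmTreat the calls of TAP1, IFI30, CD74, KAT2B, NLRC3, NLRP12, PRDM1, SOCS1, CD47, CD200, STT3B, CPNE2, INSL6, TTC21B, GOLM1, ZNF449, CCSER1, RNF125, IGFBPL1, KLF5, OTX2, LIN28A and COL1A2 were lost, besides that of CIITA. Of the lists, glmTreat called 1 class II gene, 0 enhanceosome partners, 0 NLR genes, 2 interferon gamma input genes, 0 checkpoint ligands and 0 genes acting on PD-L1 protein, and 2 pluripotency markers. With no fold minimum 3 enhanceosome partners, 2 other RFX genes and 3 genes acting on PD-L1 protein were called, and DESeq2 called 1 NLR gene. With each library left out in turn, 1 to 3 class II genes, 0 to 1 enhanceosome partners, 0 to 4 NLR genes and 0 to 2 checkpoint ligands were called. Why a left-out library moves these counts was not tested. No paired analysis was made, because the labels state no pairing between libraries of the groups.

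Among the members, the controls hold the fewest counts of CD274 and NLRC5, at 6 and 0.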
